A study of Kluyveromyces lactis with 6 samples.

Results

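The 10 terminal annotated genes at the left end of each of the 6 chromosomes of the budding yeast *Kluyveromyces lactis* were followed in cells with and without *SIR2*. Gene identifiers were sorted by chromosome letter (A to F) and then by number, and the first 10 of each chromosome were taken, which gave 60 of the 5076 genes measured. Position 1 is the gene nearest to the end. RNA was sequenced in 6 libraries, 2 from each of 3 strains grown in rich glucose medium at 30 °C and taken early in log phase. The wild type (WT, strain LRY2835) carries *SIR2*, and isolate 1 (LRY2849) and isolate 2 (LRY2850) carry a *sir2* deletion. All 3 strains are labelled *MATa* with the silent mating cassettes *HMR* and *HML* deleted, so the left arm of chromosome C lacks its cassette in WT as well. The libraries of a strain are technical replicates, WT is 1 strain, and strain, culture and genotype therefore differ together in every comparison with it.

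Sir2 is an NAD+-dependent deacetylase that removes acetyl groups from histone tails. In *Saccharomyces cerevisiae* it acts with other Sir proteins to form repressed chromatin at the silent mating cassettes and next to telomeres. *K. lactis* has 1 gene where *S. cerevisiae* has the related pair *SIR2* and *HST1*, the second of which works with Sum1 and Rfm1 at single promoters. Yeast chromosome ends also hold gene families with near-identical copies on several arms, and short reads from such copies cannot always be placed on 1 of them.

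Levels are the deposited values, taken as FPKM (fragments per length of gene and sequenced total) because the submitters' notes name Cuffnorm, which usually writes that unit. The file headers do not name the unit, and how the libraries were scaled to each other is not given in the sources used here. Differences are on log2(FPKM + 1), a scale that makes changes of genes close to 0 look smaller. A gene passed when its adjusted p in limma was under 0.05. The number of reads per library is unknown, so no counting interval is given. The sum of FPKM was 1609337 and 1612289 in WT, 1542502 and 1594267 in isolate 1, and 1667185 and 1803539 in isolate 2. KLLA0F14663g has no symbol in the reference table and is *SIR2* by common knowledge of this yeast. It averaged 65.9 FPKM in WT, 0.0881 in isolate 1 and 0.0791 in isolate 2, as the labels state. A culture value does not show whether few cells hold much of an RNA or many cells hold little.

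The outermost genes of the left arms were mostly listed at 0 in every strain, and 17 of the genes that could be tested rose without *SIR2*. Of the 60 genes, 27 were at 0 in all 6 libraries, 3 were above 0 but under the testing limit of a mean of 1 FPKM, and 30 were tested. Of all 5076 genes, 46 were at 0 in all libraries, and these 46 include the 27. Among the 60, 17 were higher in the sir2Δ strains than in WT and 2 were lower, while 11 tested genes did not pass. Across all 5021 tested genes 20.2% were higher and 19.9% were lower. The 17 higher genes are 28.3% of the 60 and 56.7% of the 30 tested. The limit could favour genes that rise, but 29 of the 30 had at least 1 FPKM in WT itself, the exception being KLLA0A00132g. With that WT level required of every gene, 16 of the 29 members left were higher and 2 lower, beside 19.7% of all genes higher. All 4 sir2Δ libraries lay above both WT libraries for 21 of the 30 tested members and below both for 5, beside 34.0% and 41.4% of all tested genes. Among the 30, called rises of at least 2-fold numbered 13 and falls of that size 0, beside 9.1% and 6.13% of all tested genes. The median difference over the 30 tested genes was 0.91, against -0.06 over all tested genes, and over all 60 it was 0.

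**Figure D1:**
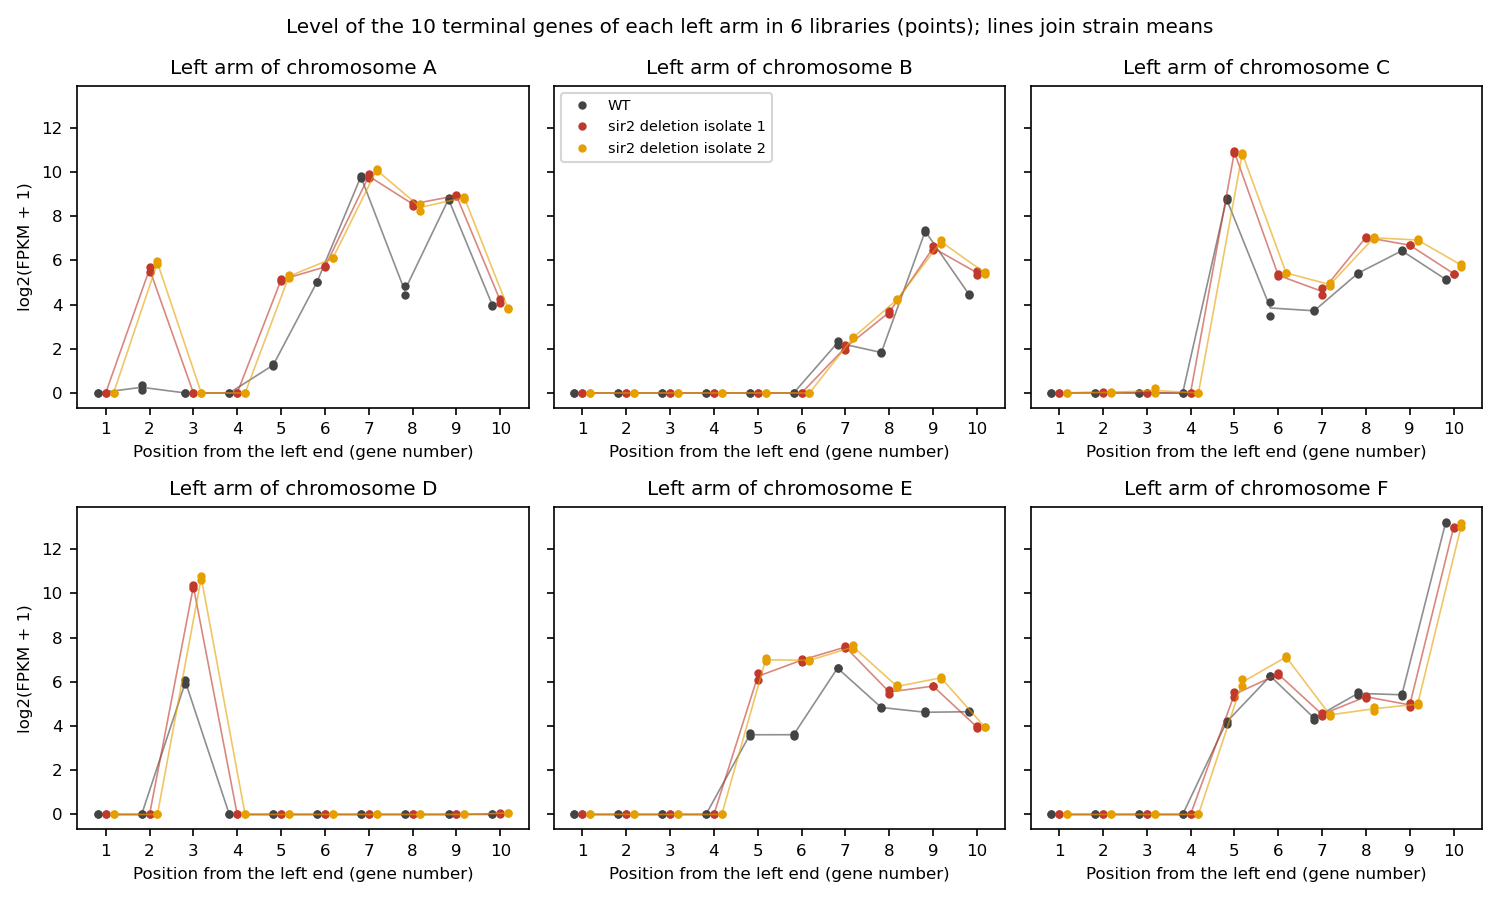
Level of each of the 10 terminal genes of the 6 left arms, as log2(FPKM + 1), by position from the end; points are the 6 libraries, coloured by strain, and lines join strain means. At positions 1 to 4 only 2 genes exceed 1 FPKM, at position 2 of arm A and position 3 of arm D, while on arms A, C, E and F every gene from position 5 inward is expressed.

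Genes at 0 lay mostly at the outer positions. On arm A the expressed gene at position 2 stood among genes at 0, and on arm D positions 4 to 9 were at 0 inside the expressed gene at position 3. Of the 24 genes at positions 1 to 4, 20 were at 0 in all libraries and 2 more, KLLA0C00132g and KLLA0C00154g, stayed under 0.2 FPKM. The first gene with at least 1 FPKM in any library stood at position 2 on arm A, at 3 on arm D, at 5 on arms C, E and F, and at 7 on arm B. Of the 30 genes at positions 1 to 5, 6 were tested and all 6 were higher, of which KLLA0A00132g reached the testing limit only through its sir2Δ libraries. Of the 30 at positions 6 to 10, 24 were tested, of which 11 were higher, 2 were lower and 11 did not pass. Over all tested genes 20.2% were higher and 19.9% lower. The 6 outer genes had a median difference of 3.47 and the 24 inner ones of 0.46. Among the outer ones are KLLA0A00132g and KLLA0D00187g, whose values are uncertain as levels of single genes, as described below. With a WT mean of at least 1 FPKM required, 5 outer genes were left, all 5 higher, with a median of 3.01. Few genes carry these outer values, since 22 of their neighbours at positions 1 to 5 gave no value at all.

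**Figure D2:**
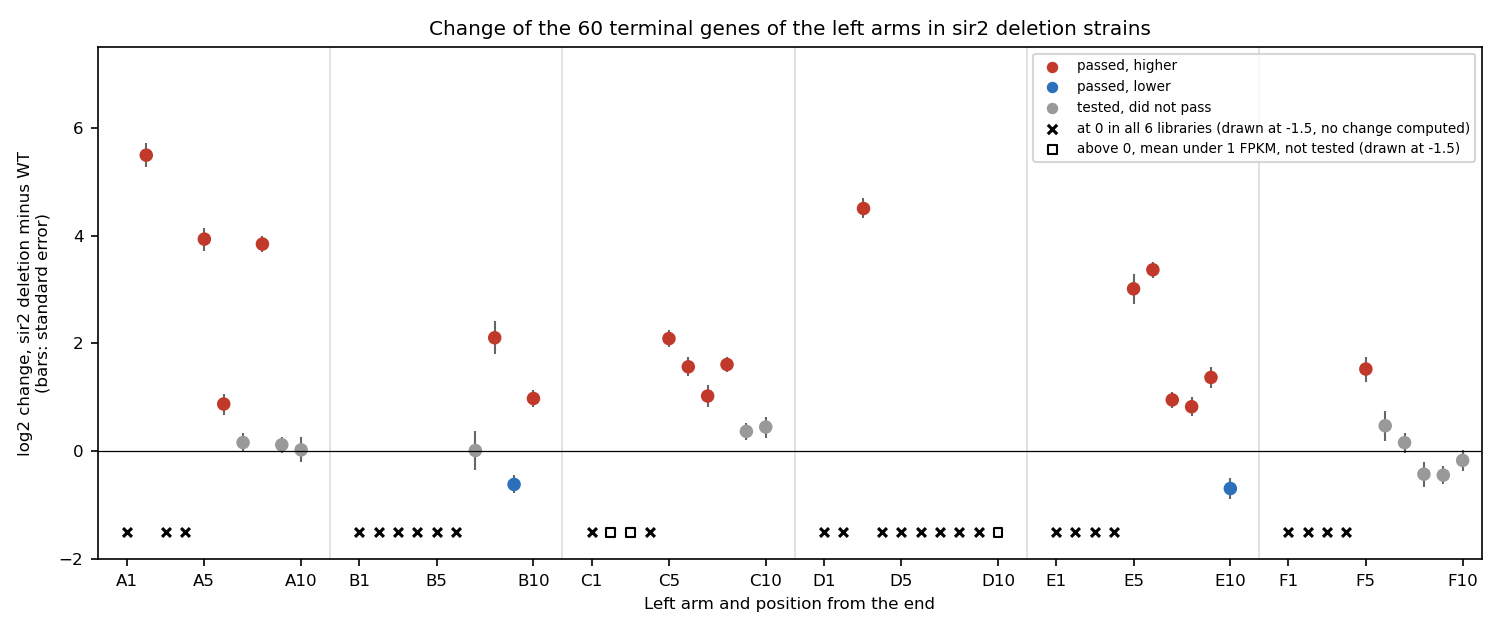
Log2 change in sir2Δ against WT for the 60 terminal genes, by arm and position from the end; bars are standard errors and colours show the limma call. Changes of more than 2 lie at positions 2, 5 and 8 of arm A, 8 of arm B, 5 of arm C, 3 of arm D, and 5 and 6 of arm E, and crosses and squares mark the 30 genes without a test.

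The arms differed in how many members could be measured and in how many rose. Arm E had 5 higher members and 1 lower one among 6 tested, and arms A and C had 4 higher members each among 7 and 6 tested. Arm B had 2 higher and 1 lower among 4, arm D had 1 higher among 1, and arm F had 1 higher among 6. Over all tested genes 20.2% were higher and 19.9% lower, and the share of higher genes on arm F was below this, at 16.7%. These counts were not tested against each other.

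On the left arm of chromosome A the largest rise was that of KLLA0A00132g at position 2, which has no gene symbol. It was at 0.109 and 0.279 FPKM in WT, 43.8 and 51.5 in isolate 1, and 61.0 and 55.8 in isolate 2. It was near 0 in both WT libraries and far above that in all sir2Δ libraries (log2 change 5.49, SE 0.23; limma, adjusted p = 1.65e-06). Its neighbours at positions 1, 3 and 4, KLLA0A00110g, KLLA0A00143g and KLLA0A00154g, were at 0 throughout. KLLA0A00176g at position 5, also without a symbol, was at 1.47 and 1.32 FPKM in WT, 32.9 and 34.4 in isolate 1, and 36.1 and 39.4 in isolate 2. Its sir2Δ libraries did not overlap with WT, and its mean was 24.1-fold higher in isolate 1 and 27.1-fold higher in isolate 2 (log2 change 3.94, SE 0.21; limma, adjusted p = 5.71e-06).

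Further in on arm A, genes that rose stood next to genes that did not pass. *THI4* at position 6, which encodes the enzyme that makes the thiazole part of thiamine in *S. cerevisiae*, was at 31.5 and 31.2 FPKM in WT, 50.1 and 51.7 in isolate 1, and 67.1 and 66.9 in isolate 2. All sir2Δ libraries lay above WT and isolate 2 above isolate 1 (log2 change 0.88, SE 0.19; limma, adjusted p = 0.00894). KLLA0A00220g at position 7 was the most abundant gene of the arm, with 902 and 854 FPKM in WT, 952 and 833 in isolate 1, and 1046 and 1117 in isolate 2. WT and isolate 1 overlapped, and the gene did not pass (0.16, SE 0.17). KLLA0A00242g at position 8 was at 20.4 and 27.3 FPKM in WT, 390 and 355 in isolate 1, and 297 and 373 in isolate 2. It was 15.6-fold and 14.1-fold above WT in isolates 1 and 2 (log2 change 3.84, SE 0.15; limma, adjusted p = 1.35e-06), with the isolates overlapping. *GTT1*, a glutathione transferase gene in *S. cerevisiae*, was at 450 and 416 FPKM in WT, 487 and 481 in isolate 1, and 442 and 470 in isolate 2. *SMC3*, which encodes a core subunit of cohesin, was at 14.4 and 14.9 in WT, 18.3 and 16.0 in isolate 1, and 13.4 and 12.8 in isolate 2. Neither gene passed (0.12, SE 0.15, and 0.03, SE 0.23), and *SMC3* lay above WT in isolate 1 and below it in isolate 2.

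On the left arm of chromosome B the 6 outermost genes, from KLLA0B00143g to KLLA0B00264g, were at 0 in all libraries. KLLA0B00286g at position 7 was low in every strain, at 4.11 and 3.53 FPKM in WT, 2.87 and 3.45 in isolate 1, and 4.78 and 4.61 in isolate 2. It did not pass (0.01, SE 0.36), and after quantile normalization the difference was -0.91. KLLA0B00308g at position 8 was at 2.61 and 2.49 FPKM in WT, 12.02 and 11.01 in isolate 1, and 18.1 and 17.3 in isolate 2. The strains formed 3 separate levels, and sir2Δ was higher (log2 change 2.11, SE 0.30; limma, adjusted p = 0.00137).

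The inner pair of arm B encodes transporters by their symbols. *AMF1*, an ammonium transporter gene in *S. cerevisiae*, was at 164 and 152 FPKM in WT, 86.3 and 100.4 in isolate 1, and 120 and 107 in isolate 2. All sir2Δ libraries lay below WT, and the gene was lower (log2 change -0.62, SE 0.17; limma, adjusted p = 0.0205). *BIO5*, which in *S. cerevisiae* encodes the carrier for a biotin precursor, was at 20.8 and 21.1 FPKM in WT, 39.7 and 45.0 in isolate 1, and 40.5 and 44.0 in isolate 2. It was 2.02-fold above WT in both isolates (log2 change 0.98, SE 0.16; limma, adjusted p = 0.00256). The next gene inward, *BIO4* of biotin synthesis, is outside the 60 and did not pass (0.08).

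On the left arm of chromosome C, positions 1 and 4 (KLLA0C00110g and KLLA0C00176g) were at 0, and positions 2 and 3 were above 0 in sir2Δ libraries only, at most 0.161 FPKM. *CSS2* at position 5 was abundant in WT and rose further. It was at 421 and 449 FPKM in WT, 1966 and 1828 in isolate 1, and 1761 and 1870 in isolate 2, or 4.36-fold and 4.17-fold above WT by strain mean (log2 change 2.09, SE 0.15; limma, adjusted p = 3.14e-05). The isolates overlapped. KLLA0C00198g was at 16.5 and 10.2 FPKM in WT, 37.7 and 40.3 in isolate 1, and 41.6 and 42.4 in isolate 2, and was higher (1.57, SE 0.17; limma, adjusted p = 0.000333). Its WT pair differed by 0.65 on the log2 scale, the widest technical gap among the members, and both values stayed below all sir2Δ libraries.

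*GEX1*, which encodes a glutathione exchanger in *S. cerevisiae*, was at 12.4 and 11.9 FPKM in WT, 20.4 and 25.8 in isolate 1, and 27.6 and 30.1 in isolate 2. It was higher (log2 change 1.03, SE 0.21; limma, adjusted p = 0.00623), with isolate 2 above isolate 1 in each library. KLLA0C00242g was at 40.9 and 42.5 FPKM in WT, 131 and 129 in isolate 1, and 123 and 133 in isolate 2. The isolates overlapped at 3 times the WT level (3.12-fold and 3.08-fold; log2 change 1.61, SE 0.14; limma, adjusted p = 0.000104). KLLA0C00264g, at 86.5 and 84.1 FPKM in WT and 101 to 125 in sir2Δ, did not pass (0.37, SE 0.16). KLLA0C00286g, at 33.5 and 34.8 in WT, 41.2 and 41.0 in isolate 1, and 56.1 and 51.5 in isolate 2, did not pass either (0.45, SE 0.20). Both had all sir2Δ libraries above WT. They passed after quantile normalization (limma, adjusted p = 0.0349 and 0.0165). With the 6 libraries entered singly they passed too (limma, adjusted p = 0.0102 and 0.0144), but that fit counts technical replicates as independent. Just inside them, KLLA0C00330g, *HMLALPHA1*, *HMLALPHA2* and KLLA0C00396g at positions 11 to 14 were at 0 in all libraries, and the labels give *HML* as deleted.

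On the left arm of chromosome D, 8 of 10 genes were at 0 and KLLA0D00275g at position 10 did not exceed 0.0562 FPKM. The exception, KLLA0D00187g at position 3, was among the most abundant terminal genes in sir2Δ. It was at 58.6 and 66.7 FPKM in WT, 1204 and 1333 in isolate 1, and 1562 and 1789 in isolate 2. All 3 strains were separate, at 20.2-fold and 26.7-fold above WT in isolates 1 and 2 (log2 change 4.52, SE 0.19; limma, adjusted p = 1.65e-06). It has no symbol in the reference table. At position 11, beyond the members, KLLA0D00330g was measurable again and higher in sir2Δ (2.73), rising from 15.8 and 15.7 FPKM to between 82.1 and 127.5.

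The left arm of chromosome E held the most called genes. Positions 1 to 4, from KLLA0E00111g to KLLA0E00177g, were at 0. KLLA0E00221g at position 5 was at 10.6 and 11.7 FPKM in WT, 67.5 and 82.3 in isolate 1, and 120 and 133 in isolate 2. Every isolate 2 value exceeded every isolate 1 value, and both exceeded WT (log2 change 3.01, SE 0.28; limma, adjusted p = 0.00012). *ARR2* and *ARR1* followed, which in *S. cerevisiae* encode arsenate reductase and the transcription factor of arsenic resistance. *ARR2* was at 11.6 and 10.8 FPKM in WT, 131 and 119 in isolate 1, and 123 and 125 in isolate 2, 11.2-fold and 11.1-fold above WT (log2 change 3.37, SE 0.15; limma, adjusted p = 2.17e-06). *ARR1* was at 96.6 and 97.8 in WT, 185 and 193 in isolate 1, and 176 and 203 in isolate 2 (log2 change 0.95, SE 0.14; limma, adjusted p = 0.00151). In both genes the isolates overlapped and stood clear of WT.

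The inner 3 members of arm E all passed. KLLA0E00287g was at 27.8 and 27.3 FPKM in WT and 43.1 to 56.1 in sir2Δ, and was higher (0.83, SE 0.18; limma, adjusted p = 0.00742). KLLA0E00309g was at 23.0 and 24.3 FPKM in WT, 55.1 and 54.6 in isolate 1, and 69.1 and 73.9 in isolate 2, and was higher (1.37, SE 0.19; limma, adjusted p = 0.00118). *OPT1*, which encodes a peptide and glutathione transporter in *S. cerevisiae*, stood at position 10. It was at 23.6 and 24.4 FPKM in WT, 14.1 and 14.9 in isolate 1, and 14.4 and 14.6 in isolate 2. It was lower (log2 change -0.69, SE 0.19; limma, adjusted p = 0.0239) and missed the threshold with libraries scaled to equal sums of FPKM (-0.72; limma, adjusted p = 0.0701).

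The left arm of chromosome F had 1 called gene among its 6 tested. Positions 1 to 4, from KLLA0F00132g to KLLA0F00220g, were at 0. KLLA0F00242g at position 5 was the only member of the arm that passed. It was at 16.3 and 17.9 FPKM in WT, 38.4 and 46.0 in isolate 1, and 55.6 and 68.9 in isolate 2 (log2 change 1.53, SE 0.23; limma, adjusted p = 0.00172). KLLA0F00264g was at 75.3 and 76.0 FPKM in WT, 77.0 and 83.9 in isolate 1, and 134 and 142 in isolate 2. Isolate 1 stayed next to WT while isolate 2 stood apart, and the comparison of genotypes did not pass (0.47, SE 0.28), though it did after quantile normalization (limma, adjusted p = 0.00721).

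The inner 4 genes of arm F did not pass. KLLA0F00286g was at 18.5 to 23.0 FPKM over all libraries (0.16, SE 0.18). *PEX22*, a peroxisome biogenesis gene, was at 45.4 and 41.6 FPKM in WT, 40.5 and 37.5 in isolate 1, and 28.4 and 24.6 in isolate 2. *RAD17*, which encodes a subunit of the DNA damage checkpoint clamp, was at 40.6 and 42.6 FPKM in WT, 31.8 and 28.2 in isolate 1, and 31.6 and 29.9 in isolate 2. *RPS12*, which encodes a protein of the small ribosomal subunit, was the most abundant member of all, at 9539 and 9355 FPKM in WT, 7924 and 8271 in isolate 1, and 8250 and 9225 in isolate 2. All 3 genes had every sir2Δ library below WT and none passed (-0.43, SE 0.23 for *PEX22*, -0.44, SE 0.16 for *RAD17* and -0.17, SE 0.20 for *RPS12*). The difference of *RAD17* was -0.475 without WT replicate 1 and -0.484 without isolate 1 replicate 1. *RAD17* passed as lower after quantile normalization (limma, adjusted p = 0.0375). It also passed with the 6 libraries entered singly (limma, adjusted p = 0.00179), a fit that counts technical replicates as independent.

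Genes at 0 recurred at like places on several arms with like coding lengths in RefSeq assembly ASM251v1. Of the 60 members, 30 share their coding length with at least 1 other member, in 9 length groups, and 23 of these 30 were at 0. Among the 30 that share it with no other member, 4 were at 0. By the same count 8 of the 60 terminal right-arm genes and 0 of the 60 at positions 11 to 20 share a length within their class. Over the whole series 91.5% of genes share their length with some other gene, and each of the 9 lengths occurs in 4 to 13 genes. The group of 1524 nt had a member on each arm, at position 1 or 2, and only KLLA0A00132g exceeded 1 FPKM. The group of 441 nt had members on arms A, C, D, E and F, and only KLLA0D00187g was above 0, at the high levels given above. All 4 members of 1047 nt, all 5 of 219 nt, and the pairs of 378, 1773 and 1731 nt on arms B and D were at 0. At the right end of chromosome D, KLLA0D19965g (441 nt), KLLA0D20009g (1524 nt) and KLLA0D20031g (1047 nt) have lengths of these groups. They were at 0 in both WT libraries and reached at most 1.32, 0.0708 and 0.115 FPKM in sir2Δ. KLLA0C19338g (1410 nt), at the right end of chromosome C, did not pass (-0.44). An equal length is not an equal sequence, and sequences were not used here.

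In both other groups each member had values. KLLA0E00221g and KLLA0F00242g, both 1269 nt long and at position 5, were both higher. KLLA0A00176g and KLLA0B00286g, both 1410 nt, differed by 3.94 and 0.01 from WT, and this contrast between them was not tested. Whether reads from other genes of like sequence are included in the values of KLLA0A00132g and KLLA0D00187g was not tested, so these values are uncertain as levels of single genes. For the genes at 0, whether their reads were placed elsewhere or dropped was not tested either. Their 0 is therefore not shown to be an absence of RNA.

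**Figure D3:**
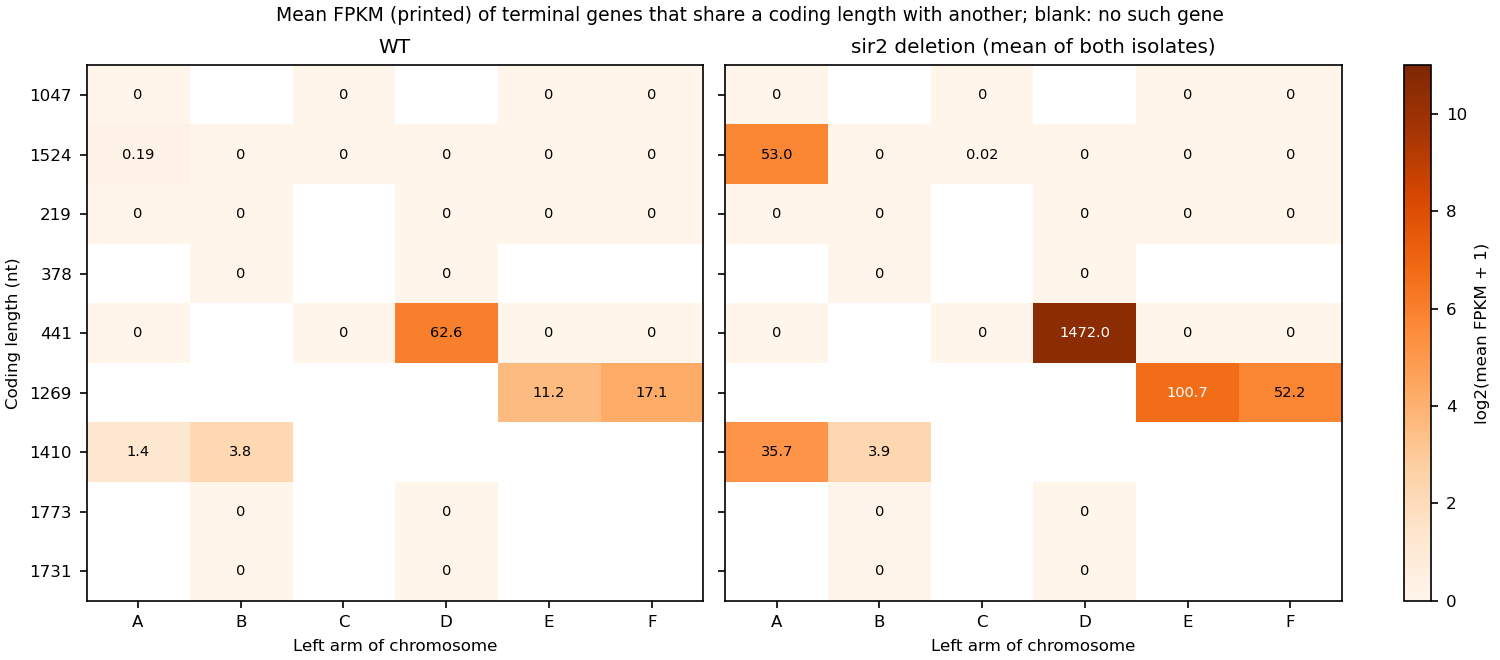
Mean FPKM, printed in each cell, of the 30 terminal left-arm genes that share a coding length with another of them, by coding length and arm, in WT and in sir2Δ; colour is log2(mean FPKM + 1). In the groups of 1524 and 441 nt a single arm holds nearly all the signal, and 5 groups are at 0 on every arm.

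Members with a gene symbol in the reference table and members without one were also counted apart. All 13 members with a symbol were tested, with 6 higher, 2 lower and 5 not passing (median difference 0.12). Of the 47 without a symbol, 17 were tested, with 11 higher, 0 lower and 6 not passing (median 1.53). Over all tested genes 20.2% were higher and 19.9% lower, with a median of -0.06. Both lower genes, *AMF1* and *OPT1*, encode transporters by their symbols, as do the higher genes *BIO5* and *GEX1*. The difference between the groups with and without symbols was not tested.

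Each isolate was also compared with WT in a fit to the 6 libraries, in which p-values measure technical spread only and both comparisons share the WT libraries. In isolate 1, 19 of the 30 tested members were higher and 3 lower, beside 30.8% and 36.6% of all tested genes. In isolate 2, 21 of the 30 were higher and 4 lower, beside 32.8% and 38.7% of all tested genes. *RAD17* was the extra lower gene in isolate 1 (-0.46), and *RAD17* and *PEX22* in isolate 2 (-0.42 and -0.70). KLLA0C00264g (0.25 and 0.49) and KLLA0C00286g (0.26 and 0.64) were higher in both isolates, and KLLA0A00220g (0.30) and KLLA0F00264g (0.86) in isolate 2.

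The isolates differed from each other at 11 members, and for most of these isolate 2 was higher. Isolate 2 exceeded isolate 1 at 9 of the 30 tested members and fell short at 2, beside 7.89% and 10.8% of all tested genes. KLLA0F00264g differed most (log2 difference 0.77, SE 0.09; limma, adjusted p = 0.000131), then KLLA0E00221g (0.76, SE 0.11; limma, adjusted p = 0.000387), KLLA0B00308g (0.58, SE 0.12; limma, adjusted p = 0.00424) and KLLA0F00242g (0.55, SE 0.12; limma, adjusted p = 0.00548). *PEX22* (-0.55, SE 0.10; limma, adjusted p = 0.00195) and *SMC3* (-0.36, SE 0.11; limma, adjusted p = 0.0283) were lower in isolate 2. *ARR1*, *ARR2*, *BIO5* and *OPT1*, which all changed against WT, differed between isolates by at most 0.01 (SE 0.09 to 0.10). The 9 higher genes became 4 when libraries were scaled to equal sums of FPKM, which moved the median difference of all genes from 0.01 to -0.14. Of the 5021 tested genes, those higher in isolate 2 then fell from 396 to 131, or 2.61%, and those lower rose from 541 to 955. Without isolate 2 replicate 2 or isolate 1 replicate 1, fewer members passed as higher, and so did a smaller share of all tested genes. The 2 lower genes became 1 when either replicate 1 of an isolate was left out, and 0 when isolate 2 replicate 2 was.

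**Figure D4:**
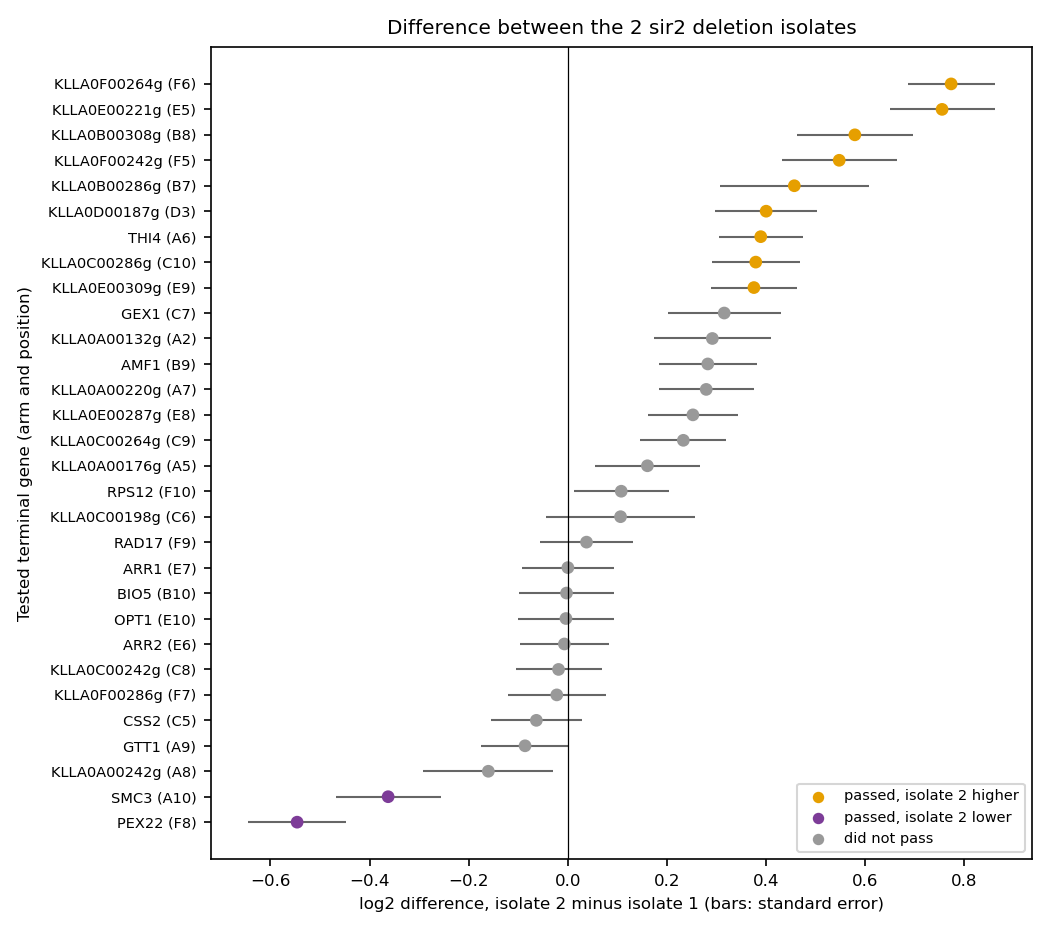
Log2 difference between the isolates (isolate 2 minus isolate 1) of the 30 tested terminal genes, with standard errors from the fit to 6 libraries; colours show the limma call. Differences run from -0.55 for *PEX22* to 0.77 for KLLA0F00264g, and 9 of the 11 called genes are higher in isolate 2.

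The right ends and the next genes inward on the left arms held fewer genes at 0. At the 60 terminal genes of the right arms 1 was at 0, 54 were tested, and 29 were higher and 5 lower in sir2Δ. At positions 11 to 20 of the left arms 4 of 60 were at 0, 56 were tested, and 18 were higher and 9 lower. All 4 at 0 stand at positions 11 to 14 of arm C and include *HMLALPHA1* and *HMLALPHA2*, and the labels give *HML* as deleted. Higher genes made up 56.7% of those tested at the left ends, 53.7% on the right arms and 32.1% at positions 11 to 20. Lower genes made up 6.67%, 9.26% and 16.1% in the same order. Of all tested genes 20.2% were higher and 19.9% lower. The median FPKM of all 60 genes in WT was 0.0969 for the left ends, 34.9 for the right ends and 56.4 at positions 11 to 20. The left-end value falls between 0 and the WT mean of KLLA0A00132g (0.194), so it mostly reflects the genes at 0. Genes with at least 1 FPKM in WT numbered 29, 51 and 56 in these classes. No test was run between these classes. Across the border of the list, the changes at position 10 were 0.03, 0.98, 0.45, -0.69 and -0.17 on arms A, B, C, E and F, with arm D not tested. At position 11 they were 1.19, 0.08, 2.73, 0.46 and 0.73 on arms A, B, D, E and F, with arm C at 0.

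**Figure D5:**
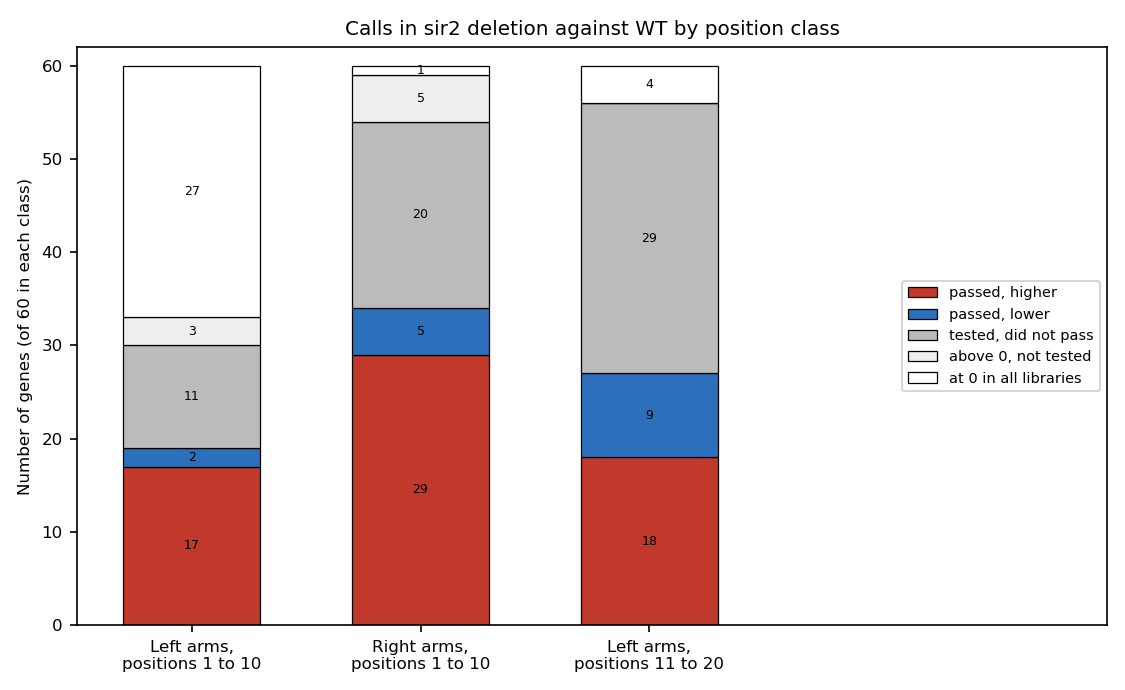
Number of genes by call in sir2Δ against WT for 3 classes of 60 genes each: the terminal 10 of the left arms, the terminal 10 of the right arms, and positions 11 to 20 of the left arms. The left ends hold 27 genes at 0, against 1 and 4. Higher genes number 17 among 30 tested, against 29 among 54 and 18 among 56. These are 56.7%, 53.7% and 32.1% of those tested, beside 20.2% of all tested genes.

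Genes that encode the machinery of silencing and of telomeres were counted as a list of their own, together with *NPT1* and *PNC1*, which encode NAD+ salvage enzymes. Of 64 names, 53 matched a symbol. Matching was by symbol only, so *SIR2* itself (KLLA0F14663g, -5.95) is not among the 53. No gene matched *SIR1*, *SIR3*, *SIR4* or *HST1* either, so the counts hold no *SIR* gene. All 53 were tested, with 7 higher, 7 lower and 39 not passing. That is 13.2% in each direction, beside 20.2% higher and 19.9% lower of all tested genes. Their median difference was -0.11, against -0.06 over all tested genes. The higher genes were *NPT1* of NAD+ salvage (3.08), the deacetylase gene *HOS1* (0.82), the checkpoint kinase gene *MEC1* (0.76), *PNC1*, a nicotinamidase gene (0.66), *EST3* of telomerase (0.65), and *SUM1* and the end-binding gene *YKU80* (0.54 each). The lower ones were the histone chaperone gene *ASF1* (-1.52), *RRM3* (-0.75), *CYC8* (-0.70), *HDA3* (-0.68), *HDA1* (-0.65), *HIR2* (-0.62) and *SAS4* (-0.54). With equal sums of FPKM, 8 of these 14 missed the threshold, namely *YKU80*, *SUM1*, *MEC1*, *RRM3*, *EST3*, *SAS4*, *HDA3* and *HIR2*. *YKU80* and *SUM1* also missed it without isolate 1 replicate 2 (limma, adjusted p = 0.0706 and 0.0546) and without isolate 2 replicate 1 (limma, adjusted p = 0.0947 and 0.0673), as did *SAS4* without isolate 1 replicate 2 (limma, adjusted p = 0.0561) and *MEC1* after quantile normalization (limma, adjusted p = 0.153). *RAP1*, whose product binds telomere repeats, was at 60.2 FPKM in WT, 61.6 in isolate 1 and 62.1 in isolate 2, and *ORC1*, *RIF1* and *YKU70* did not pass either (-0.41, -0.27 and 0.22).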

How the data were processed

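Total RNA from 6 libraries was sequenced as 50 bp single-end reads from a non-stranded kit, per the labels' protocols. The authors deposited 1 value per gene and library, taken as FPKM from the named tools and the range of the values; the submitters' processing notes name TopHat2 2.0.10 and Cuffnorm 2.2.1. The sources used here give no genome build, annotation or scaling option. Without strand, antisense reads count toward a gene. Members, lists and comparisons were chosen with earlier results of these data known. All 60 members matched the RefSeq table of assembly ASM251v1, used for symbols, coding lengths and gene order only.

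Values were analysed as log2(FPKM + 1) with limma 3.58.1 (R 4.3.3), two-sided, with an intensity trend and Benjamini-Hochberg adjustment over the 5021 genes whose 3 strain means averaged 1 FPKM or more. For sir2Δ against WT, technical libraries were averaged to set 1 WT strain against 2 isolates (1 residual degree of freedom), assuming that WT varies like the isolates. Single isolates were compared in a fit to 6 libraries in 3 groups (3 residual degrees of freedom). For sir2Δ against WT, limma added 7.03 degrees of freedom from the spread over all genes. The procedure was also run on simulated data. There WT was given the same spread as the isolates, so the simulation does not check the assumption above. Printed per library are the 3 largest changes and the most abundant gene of each arm, its first gene above 1 FPKM, genes with a symbol and the 10 largest of the differences between isolates; a few further members are named after their values were seen. Alternatives covered pseudocount, filter, scaling, trend, replicate block and each library left out.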

Additional observations from a re-analysis of the deposited data

Results flagged for a closer look

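For 11 members the change against WT differed between the isolates, by the test of isolate 2 against isolate 1 in the fit to 6 libraries (limma, adjusted p under 0.05), whose p-values measure technical spread only. Isolate 2 was lower for *PEX22* (log2 difference -0.55) and *SMC3* (-0.36). It was higher for KLLA0E00309g and KLLA0C00286g (0.38 each), *THI4* (0.39), KLLA0D00187g (0.40), KLLA0B00286g (0.46), KLLA0F00242g (0.55), KLLA0B00308g (0.58), KLLA0E00221g (0.76) and KLLA0F00264g (0.77). KLLA0B00308g, KLLA0E00221g and KLLA0F00264g passed in every alternative run for them. The other 8 missed the threshold in at least 1. The sum of FPKM was higher in both isolate 2 libraries than in the other 4, and with all libraries scaled to equal sums 4 of the 9 higher members and both lower ones passed. Among all tested genes 131 were then higher in isolate 2 and 955 lower, against 396 and 541 in the main fit.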

How the results depend on the processing

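The count of 17 higher members in sir2Δ against WT ranged from 16 to 20 over all alternatives, and it was 17 without each library in turn. The count of 2 lower members was 1 with equal sums of FPKM, and 2 to 3 without single libraries. Arm F had 2 higher members instead of 1 after quantile normalization. With the 6 libraries entered singly and the replicate number as a block, 19 members were higher and 3 lower, as without the block. Both of these fits count technical replicates as independent. Over all tested genes 28.7% were higher and 33.4% lower with the block, and 29.4% and 34.7% without it. Same-numbered libraries deviated together with correlations of 0.0052 between WT and isolate 1, 0.055 between WT and isolate 2, and 0.21 between the isolates. The main fits do not use the replicate number, and whether it pairs the isolate libraries was not tested. With the replicate block, 13 members were higher and 2 lower in isolate 2 against isolate 1, and counts for each isolate against WT were 19 and 3, and 21 and 4. Of all 5021 tested genes, 541 (10.8%) were higher and 679 lower in isolate 2 against isolate 1 with the block. These numbers were 396 and 541 in the main fit, and 131 and 955 with equal sums of FPKM. In isolate 2 against isolate 1 the 9 higher members became 4 with equal sums of FPKM and 4 to 11 without single libraries. The 2 lower became 1 after quantile normalization and 0 to 2 without single libraries. Directions turned only for 4 genes that did not pass. After quantile normalization these were KLLA0A00220g (-0.029), *GTT1* (-0.029), *SMC3* (-0.035) and KLLA0B00286g (-0.91). With equal sums of FPKM they were *SMC3* (-0.0052) and KLLA0B00286g (-0.015). Without single libraries *SMC3* ran from -0.020 (isolate 1 replicate 1 left out) to 0.071, and KLLA0B00286g from -0.072 (WT replicate 2 left out) to 0.10; it was -0.036 with isolate 1 replicate 2 left out. The cause was not tested. Depth is unknown, and values near 0 carry no error from counting.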
